A study of Bos taurus with 6 samples.

Results

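Prostaglandins are lipid signals made from arachidonic acid, and the enzymes and carriers that make, move and break them down were examined in bovine embryos produced by in vitro fertilization (IVF). All probe sets annotated to PTGS1, PTGS2, PTGES, PTGES2, PTGES3, AKR1B1, HPGD, SLCO2A1 or PLA2G4A were kept, which gave 11 of the 24036 probe sets in the table, for 7 of the 9 genes. No probe set was annotated to PTGES2 or PLA2G4A, and both are not analysed here. The arrays measured 3 pools of late degenerative embryos (A, B and C) and 3 pools of blastocysts (A, B and C). Each pool held 20 embryos of day 8 on its own Affymetrix Bovine Genome Array. All embryos came from abattoir oocytes matured and fertilized in vitro, were cultured in synthetic oviductal fluid and had compacted by the check in midculture. Blastocysts were those with an inner cell mass and a cavity, whereas degenerative embryos had not made this step and may differ in stage among themselves. Every pool mixed embryos of several cows and bulls, and the p-values reflect how far such pools spread.

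The pathway starts when phospholipases free arachidonic acid from membranes. The cyclooxygenases PTGS1 and PTGS2 then turn it into prostaglandin H2, from which terminal synthases make prostaglandin E2 (PTGES, PTGES2 and PTGES3) or prostaglandin F2 alpha (among others AKR1B1, in cattle). The transporter SLCO2A1 takes prostaglandins up into cells and HPGD inactivates them there. In ruminants the trophectoderm, the outer layer of the blastocyst, expresses PTGS2 and releases prostaglandins before implantation.

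Values are log2 expression from GCRMA, on a scale whose floor is 2.12, and every difference is degenerative embryos minus blastocysts. Differences near the floor are compressed, and values of different probe sets are not set against each other. Each difference was tested with limma over 18937 probe sets, with Benjamini-Hochberg adjustment and a threshold of 0.15, the false discovery rate of the methods. Degenerative pool A stood apart from the rest. It lay more than 2 log2 units above or below both other degenerative pools in 7.36% of the tested probe sets, where the share was between 0.0528% and 2.48% for each of the other 5 pools. Its correlation across probe sets was 0.938 with degenerative pool B and 0.936 with pool C, against 0.987 between B and C, and differences of the prostaglandin synthesis and transport genes are therefore given with and without it.

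PTGS2, the inducible cyclooxygenase, separated the groups in both of its bright probe sets, with the degenerative pools lower. In the probe set annotated to the RefSeq transcript of the gene (the RefSeq probe set), log2 expression was 12.70, 12.64 and 13.00 in degenerative pools A, B and C. The blastocyst pools A, B and C were at 14.24, 13.54 and 13.57. The groups did not overlap, and degenerative pool A lay between the other degenerative pools. Means were 12.78 ± 0.19 in degenerative embryos and 13.78 ± 0.40 in blastocysts (SD, n = 3 pools each). The log2 difference was -1.005 (standard error 0.24, 95% interval -1.62 to -0.38), or 2.01-fold lower, and did not pass after adjustment (limma adjusted p = 0.479, rank 362 of all tested probe sets). Without degenerative pool A it was -0.97 (adjusted p = 0.443 from limma).

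The second PTGS2 probe set, annotated through an expressed sequence tag, read 2.12, 10.69 and 11.11 in degenerative pools A, B and C, against 11.97, 11.41 and 11.36 in blastocyst pools A, B and C. Degenerative pool A was at the floor in this probe set, while it stood among the other degenerative pools in the RefSeq probe set, so these 2 probe sets of 1 gene disagreed in that pool. With all pools the difference came to -3.61 on the log2 scale (standard error 2.71, limma adjusted p = 0.737), and without pool A to -0.68 (standard error 0.27, adjusted p = 0.512). The third PTGS2 probe set was dim. It read 5.49, 2.12 and 2.29 in degenerative pools, against 2.87, 2.23 and 2.17 in blastocyst pools, and its log2 difference of 0.88 turned to -0.22 without degenerative pool A.

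PTGS1, the cyclooxygenase that many tissues express without induction, showed no separation of the groups. In its brighter probe set the degenerative pools A, B and C were at 3.16, 5.47 and 5.79 and the blastocyst pools at 5.73, 5.51 and 5.70. Degenerative pools B and C lay within or next to the range of the blastocysts, and only pool A was low. The log2 difference was -0.84 (95% interval -2.85 to 1.17, adjusted p = 0.737 from limma) and came to -0.02 (95% interval -0.41 to 0.38) without pool A. Its other probe set was at the floor of 2.12 in all 6 pools and could not be tested.

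**Figure D1:**
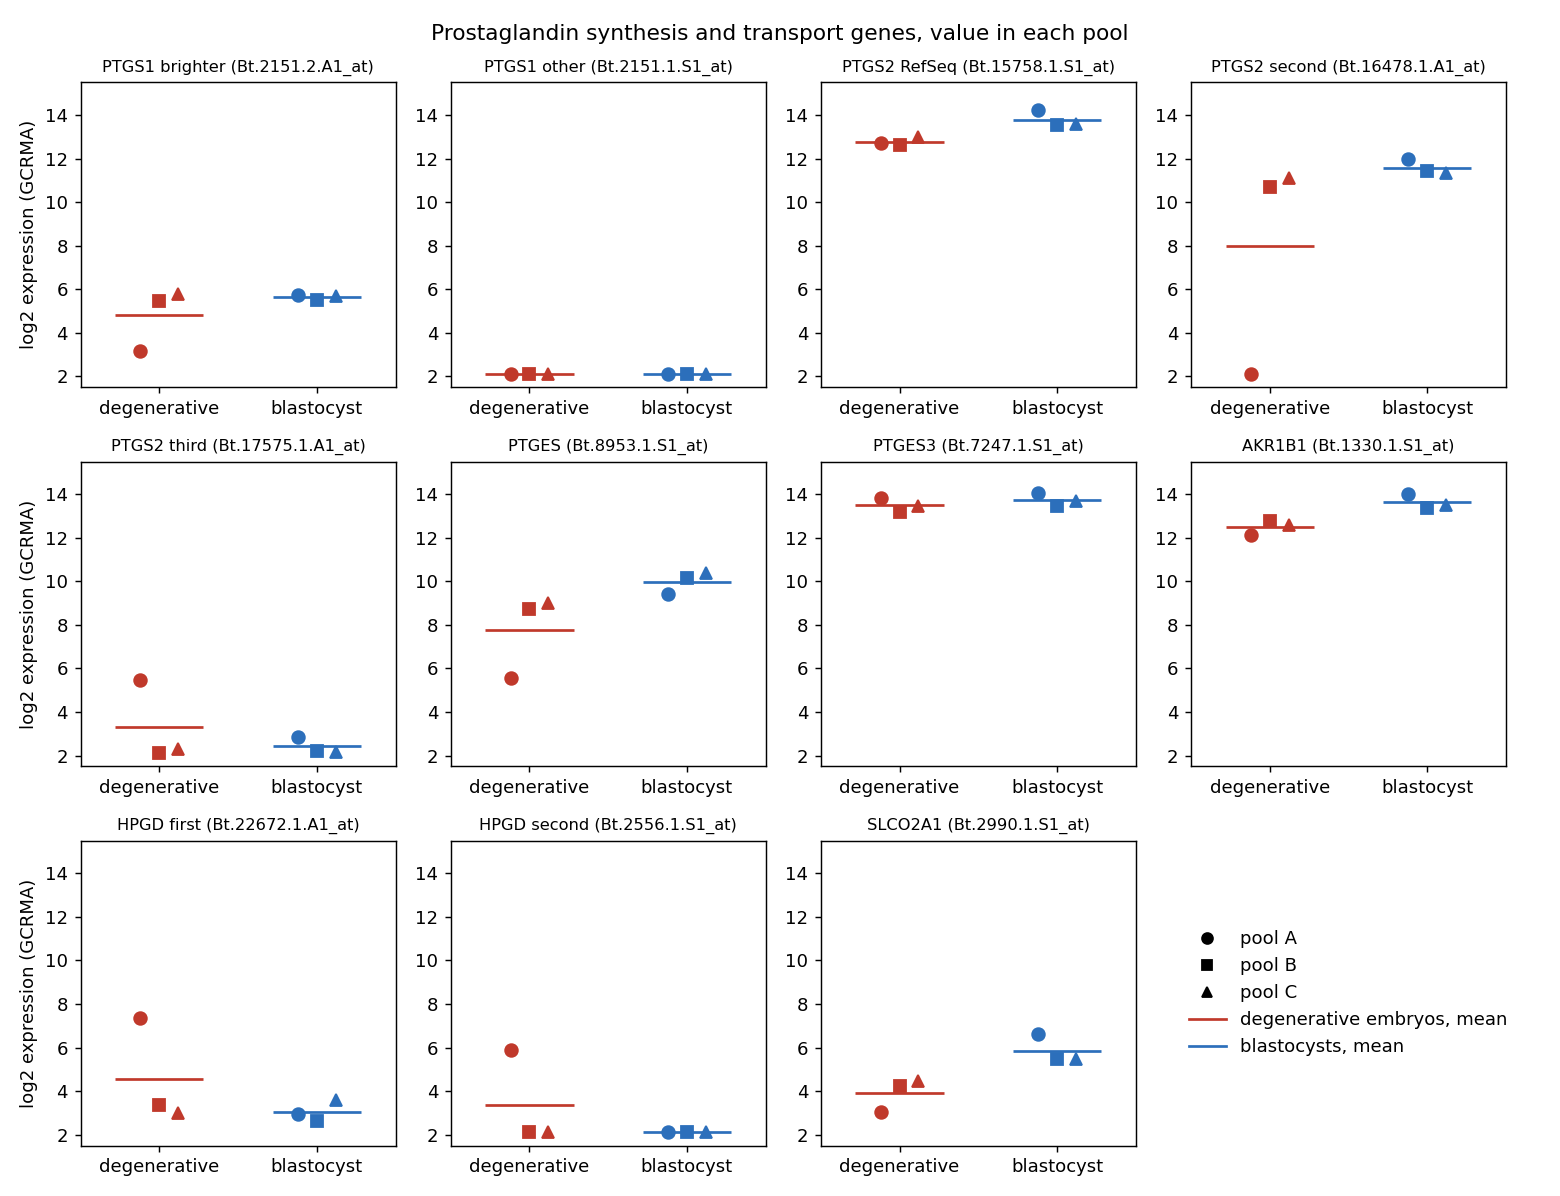
Log2 expression (vertical axis, GCRMA) of the 11 probe sets in each pool, degenerative embryos in red on the left and blastocysts in blue on the right, the letters told apart by marker shape and group means drawn as lines. The red and blue points do not overlap for the RefSeq and second probe sets of PTGS2, PTGES, AKR1B1 and SLCO2A1, and degenerative pool A lies far from B and C in several panels.

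PTGES, the membrane-bound prostaglandin E synthase that is induced together with PTGS2 in many cells, was at 5.58, 8.71 and 8.99 in degenerative pools A, B and C and at 9.40, 10.16 and 10.38 in blastocyst pools A, B and C. All 3 degenerative pools lay below the blastocysts, pool A by far the most. The log2 difference was -2.22 (standard error 1.04, 95% interval -4.96 to 0.52, limma adjusted p = 0.628). Without degenerative pool A the difference was smaller, at -1.13 on the log2 scale, and so was its standard error, at 0.36 (adjusted p = 0.454).

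PTGES3, a cytosolic prostaglandin E synthase better known as p23, a co-chaperone of HSP90, differed little. Its degenerative pools A, B and C were at 13.83, 13.19 and 13.47 and its blastocyst pools at 14.03, 13.47 and 13.71, so the ranges overlapped. The log2 difference was -0.24 (95% interval -0.84 to 0.37, adjusted p = 0.737 from limma), and -0.40 without degenerative pool A (adjusted p = 0.588). Between pools of the same letter the differences were nearly equal, at -0.20 for A, -0.27 for B and -0.24 for C, and the standard error of 0.23 was 0.05 with the letter as a block (limma adjusted p = 0.495).

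AKR1B1, an aldo-keto reductase that acts as a prostaglandin F synthase in the bovine endometrium, had the smallest limma p among the 10 tested probe sets of these genes. Its degenerative pools A, B and C were at 12.11, 12.79 and 12.56 and its blastocyst pools A, B and C at 14.03, 13.36 and 13.52. The groups did not overlap, and each group spread by under 1 log2 unit. Means were 12.49 ± 0.34 in degenerative embryos and 13.64 ± 0.35 in blastocysts (SD, n = 3 pools each). The log2 difference was -1.15 (standard error 0.26, 95% interval -1.84 to -0.46), or 2.22-fold lower (limma adjusted p = 0.479, rank 321 of all tested probe sets). Without degenerative pool A it was -0.96 (adjusted p = 0.400).

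SLCO2A1, the prostaglandin transporter, was at 3.03, 4.23 and 4.48 in degenerative pools A, B and C, against 6.60, 5.47 and 5.50 in blastocyst pools A, B and C. The groups did not overlap, and the A pools held both extremes. The log2 difference was -1.94 (standard error 0.54, 95% interval -3.35 to -0.53), or 3.84-fold lower (limma adjusted p = 0.517). Degenerative embryos were 2.83-fold lower without degenerative pool A (adjusted p = 0.442), and the log2 difference was -1.13 without both A pools. All degenerative values were in the dim range under 5, where the scale compresses differences.

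HPGD, the dehydrogenase that starts the breakdown of prostaglandins, was dim in 5 of the 6 pools. Its first probe set read 7.38, 3.38 and 2.99 in degenerative pools A, B and C and 2.96, 2.63 and 3.60 in blastocyst pools A, B and C. The second read 5.91 in degenerative pool A and 2.12 in degenerative pools B and C and in every blastocyst pool. Both HPGD probe sets were thus raised in degenerative pool A alone. The log2 differences of 1.51 and 1.26 had an adjusted p of 0.737 each from limma, and without that pool they were 0.12 and 0.

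**Figure D2:**
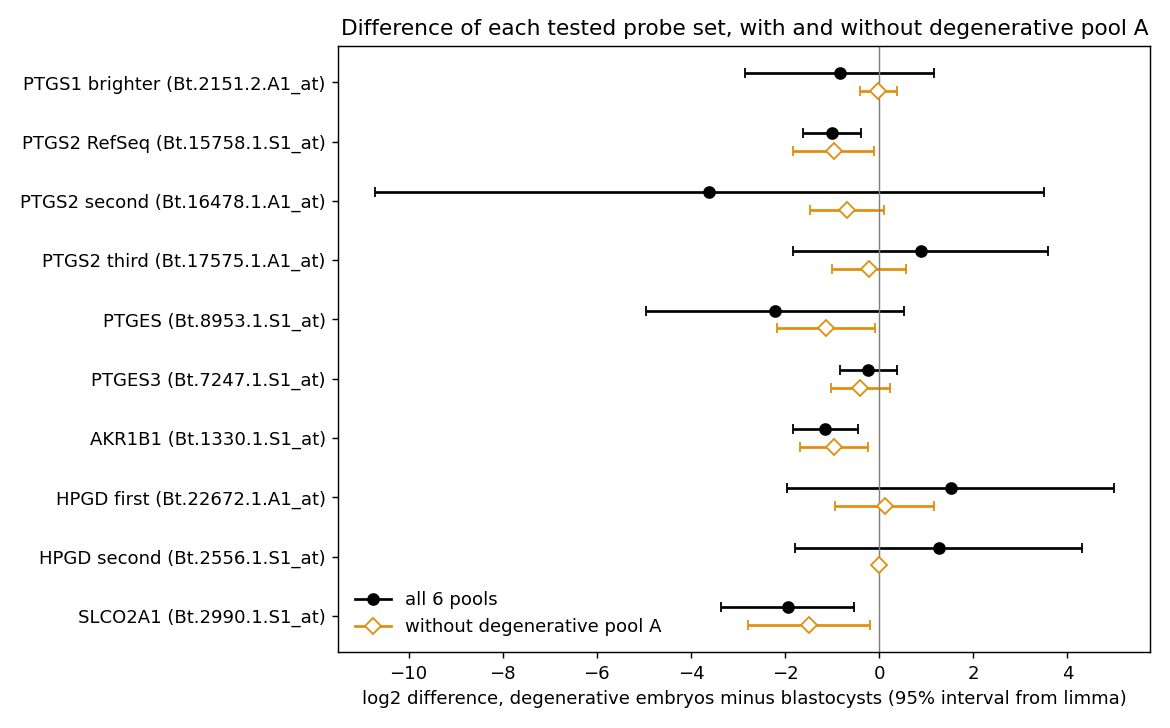
Log2 difference, degenerative embryos minus blastocysts, of the 10 tested probe sets (horizontal axis, bars are 95% intervals from limma before adjustment), over all 6 pools (black circles) and without degenerative pool A (open orange diamonds). The diamonds of PTGES, AKR1B1, SLCO2A1 and the RefSeq probe set of PTGS2 stay below 0 with their intervals, that of PTGES nearer to 0 than its circle. Those of PTGS1, HPGD and the second probe set of PTGS2 lie much nearer to 0 than the circles.

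Over the 10 tested probe sets of the 7 genes, 7 had a lower and 3 a higher mean in degenerative embryos, where 48.3% of all tested probe sets were lower. No overlap between the groups was found in 5 of them, all lower in degenerative embryos (PTGS2 in 2 probe sets, PTGES, AKR1B1 and SLCO2A1), against 8.93% of all tested probe sets in that direction. For single values, the exact permutation test over the 20 relabelings of the pools cannot give a two-sided p below 0.1, and these 5 were at 0.1. By limma, 0 of the 10 passed at an adjusted p of 0.15, where 0.0211% of all tested probe sets did (0.0158% lower in degenerative embryos), and 0 passed without degenerative pool A, where 0.222% did. An unadjusted limma p under 0.05 was found for 3 (PTGS2 in the RefSeq probe set, AKR1B1 and SLCO2A1, all lower), against 5.27% of all tested probe sets in that direction. Without degenerative pool A it was found for 4, against 10.6% of all in either direction. With the letter as a block it was found for 2, against 9.45% of all, and these were PTGS2 in the RefSeq probe set and PTGES3, without AKR1B1 and SLCO2A1. SAM, the test of the methods, called 0 of the 10 at a false discovery rate of 15%, where it called 0.354% of all tested probe sets. At 25%, the rate that the methods used for gene categories, SAM called those 3, against 4.66% of all. The median log2 difference over the 10 was -0.92 with all pools and -0.54 without degenerative pool A, beside 0.00 over all tested probe sets in both cases. The genes were chosen with earlier results of these data known, and the shares over all tested probe sets include many dim ones. Probe sets of 1 gene share their target, so the 10 are not independent and these counts do not test the set.

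Degenerative pool A was the lowest of the 6 pools in 5 of the 10 probe sets and the highest in 3, where it was one or the other in 55.1% of all tested probe sets. Set against the blastocyst pool of the same letter, the PTGES difference was -3.82 for A, -1.45 for B and -1.39 for C, and that of SLCO2A1 was -3.57, -1.24 and -1.01. For PTGS2 in the RefSeq probe set it was -1.54, -0.90 and -0.58, and for AKR1B1 it was -1.91, -0.57 and -0.96. In these 4 probe sets the difference had the same sign for every letter and was largest for A. Blastocyst pool A also lay apart from its group, as the share of 2.48% given above was its own. It was the highest blastocyst pool in the RefSeq probe set of PTGS2, AKR1B1 and SLCO2A1, and the lowest in PTGES. Without it the log2 differences were -0.78, -0.95, -1.57 and -2.51, in that order.

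**Figure D3:**
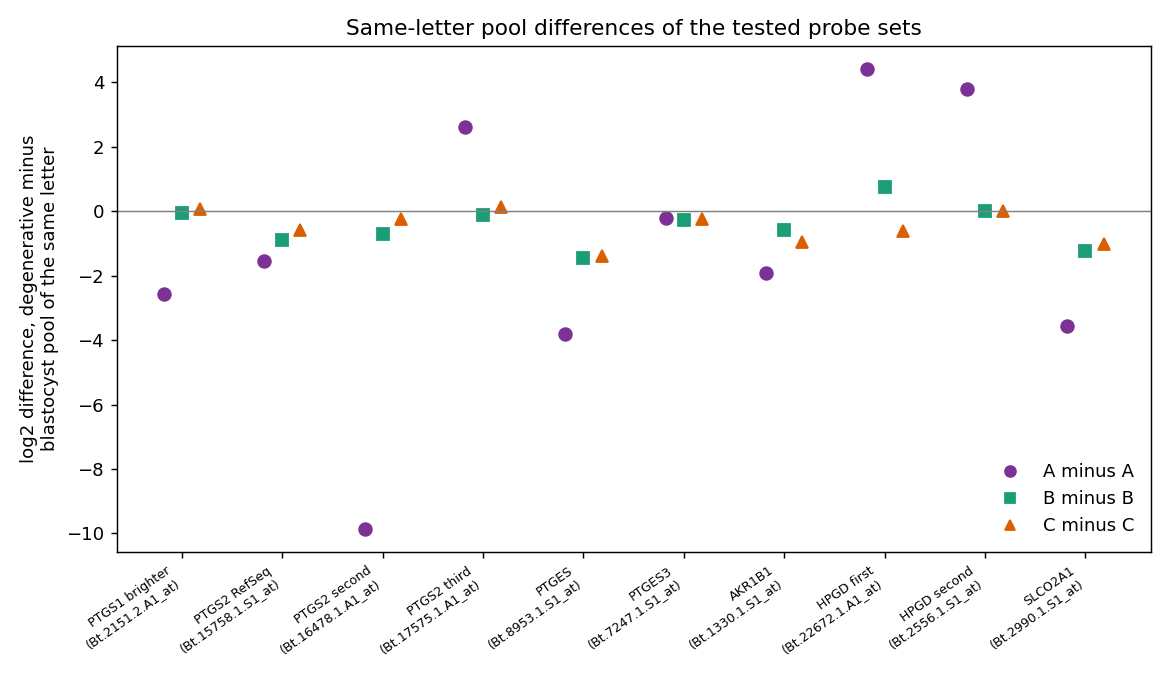
Log2 difference between the degenerative and the blastocyst pool of the same letter (vertical axis) for each of the 10 tested probe sets, circles for A, squares for B and triangles for C. The difference for letter A lies farthest from 0 in every probe set but PTGES3. PTGES, PTGES3, AKR1B1, SLCO2A1 and the RefSeq and second probe sets of PTGS2 are below 0 for all 3 letters.

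Markers of the embryo's cell layers were measured beside these genes, with 1 probe set per gene, that of the highest mean. Of 14 listed trophectoderm markers 9 had a probe set, and KRT18, a keratin of this layer, read between 15.17 and 15.52 in degenerative pools and between 15.26 and 15.65 in blastocyst pools. The summed log2 level of the 9 was 68.3, 77.7 and 75.7 in degenerative pools A, B and C, against 83.5, 79.7 and 79.7 in blastocyst pools A, B and C. In this sum the degenerative pools all lay below the blastocysts, as they did for PTGS2, PTGES, AKR1B1 and SLCO2A1. The part of the sum in the differences of those genes was not tested. Only 1 of the 9 markers separated the groups, TFAP2A, a transcription factor of trophoblast, and it had the largest difference. TFAP2A was at 4.78, 6.98 and 6.47 in degenerative pools and at 9.26, 8.96 and 8.70 in blastocyst pools. Its log2 difference was -2.90 (adjusted p = 0.470 from limma), and -2.25 without degenerative pool A. KRT19, ELF5 and ASCL2 had log2 differences of -1.18, -1.10 and -0.82, which were -0.51, -0.24 and -0.74 without degenerative pool A. Among the 9 markers, 7 were lower and 2 higher. The higher ones were TEAD4 and DLX3, at log2 differences of 0.02 and 0.01, with DLX3 near the floor, and KRT8 differed by -0.04. Without degenerative pool A, TEAD4, DLX3 and KRT8 differed by 0.19, 0.02 and -0.51. IFNT2, an interferon tau gene, read 10.45 in degenerative pool A and between 12.95 and 13.54 in the other 5 pools. The median log2 difference of the 9 was -0.82 with all pools and -0.24 without degenerative pool A. In the 8 markers other than TFAP2A the groups overlapped, so the sum does not show the 9 moving as a set. None of the 9 passed limma. In whole embryos, fewer cells of a type and less RNA per cell cannot be told apart.

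The inner cell mass list was measured by 3 of its 9 genes, with summed levels of 34.2 to 37.2 in degenerative pools and 33.3 to 33.8 in blastocyst pools. It had 0 lower and 3 higher genes, SOX2, KLF4 and POU5F1, at log2 differences of 1.03, 0.51 and 0.48, which were 0.68, 0.26 and 0.31 without degenerative pool A. The groups overlapped for SOX2 but not for KLF4 and POU5F1. Over all tested probe sets, 15.4% had no overlap in either direction. Of 7 hypoblast genes 4 were measured and all 4 overlapped between the groups, with sums of 35.1 to 36.5 in degenerative pools and 32.7 to 36.5 in blastocyst pools. GATA4, HNF4A and GATA6 had log2 differences of 1.17, 0.15 and -0.05, and of 1.79, 0.21 and -0.15 without degenerative pool A. PTGS2 is also a gene of cumulus cells around the oocyte. Of 14 measured cumulus and granulosa markers, 4 were at the floor in every pool, AMH and FOXL2 among them. Others were bright, such as HSD3B1, a steroid dehydrogenase, at 6.12, 11.52 and 11.12 in degenerative pools and 11.51, 11.64 and 12.09 in blastocyst pools (log2 difference -2.16, and -0.43 without degenerative pool A). STAR and CYP17A1, also genes of steroid synthesis, reached 9.15 and 7.64 in degenerative pools and 8.74 and 7.46 in blastocyst pools. FSHR, the receptor of follicle-stimulating hormone, read at most 2.19 in degenerative pools and 3.03 in blastocyst pools. INHBA, a subunit of activin, was at 8.70, 9.03 and 7.84 in degenerative pools and at 3.71, 6.64 and 7.68 in blastocyst pools, and CYP19A1, the aromatase, read at most 2.75 in degenerative pools and 6.69 in blastocyst pools. The summed levels of this list were 60.8 to 75.2 in degenerative pools and 62.7 to 75.5 in blastocyst pools. For spermatozoa, 7 of 8 genes were measured, with sums of 26.8 to 28.8 in degenerative pools and 27.2 to 30.2 in blastocyst pools, and PRM2, TNP2 and ODF1 were at the floor throughout. ODF2 was listed for its part in the sperm tail, and whether its RNA came from spermatozoa was not tested. It read 10.38, 10.23 and 10.71 in degenerative pools and 10.88, 10.95 and 10.81 in blastocyst pools. The groups did not overlap (log2 difference -0.44, limma adjusted p = 0.545). TNP1 reached 5.69 in degenerative pools and 7.42 in blastocyst pools, and AKAP4 and PRM1 had log2 differences of 0.14 and 0.20. The part of these marker genes in the differences of the prostaglandin genes was not tested.

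Receptors through which prostaglandins act were dim. Of 9 listed, 5 had a probe set, and in the probe set of the highest mean none of these reached 5 in any pool, with PTGER2, PTGER3 and PTGDR2 at the floor in all 6. PTGER4, a receptor of prostaglandin E2, was at 2.21, 2.47 and 3.59 in degenerative pools and at 2.45, 2.25 and 2.56 in blastocyst pools. The receptor of prostaglandin F2 alpha, PTGFR, was at 2.38, 4.21 and 4.29 in degenerative pools and at 3.53, 3.33 and 4.19 in blastocyst pools, and another of its probe sets reached 5.85 in blastocyst pool A only. None of the 3 that could be tested passed limma, and none had an unadjusted p under 0.05.

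Among the other prostanoid synthases, 6 of 8 genes had a probe set, with 1 lower and 5 higher in degenerative embryos and a median log2 difference of 0.55 (0.36 without degenerative pool A). These counts include 2 genes near the floor. AKR1C3, the lower gene, had a log2 difference of -0.11, and TBXAS1, counted as higher, differed by only 9.5e-08. None of them had a limma p under 0.05. PRXL2B, which reduces prostaglandin H2 to prostaglandin F2 alpha, was at 10.24, 10.70 and 10.35 in degenerative pools and at 9.49, 9.80 and 10.24 in blastocyst pools (log2 difference 0.59, adjusted p = 0.601, and 0.68 without degenerative pool A). AKR1C4 was highest in degenerative pool A, at 9.98, with the other 5 pools between 6.76 and 7.83, so its difference of 0.88 was 0.04 without that pool. Its other probe sets read between 2.12 and 2.29 in the blastocyst pools and at most 4.99 in any degenerative pool. PTGDS, which makes prostaglandin D2, and PTGIS, which makes prostacyclin, read at most 5.68 and 4.84 in degenerative pools and at most 4.89 and 3.69 in blastocyst pools. TBXAS1, the thromboxane synthase, was at the floor in all pools, and AKR1C3 did not exceed 2.51.

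Other genes of breakdown and transport went both ways. Of 7 listed, 6 had a probe set, 5 of them lower and 1 higher. The lower ones include PTGR3 and SLCO4A1, which were near the floor, at log2 differences of -0.11 and -0.00016. SLCO2B1, an organic anion transporter related to SLCO2A1, was at 6.89, 7.65 and 7.35 in degenerative pools and at 8.14, 8.13 and 8.04 in blastocyst pools, a log2 difference of -0.81 (limma adjusted p = 0.506). Its probe set annotated to the RefSeq transcript was at the floor of 2.12, but for 2.48 in blastocyst pool A. SLCO3A1, another relative, was at 6.30, 4.93 and 3.85 in degenerative pools and at 2.64, 2.52 and 3.51 in blastocyst pools, and was 4.40-fold higher in degenerative embryos (limma adjusted p = 0.552). In the brighter probe set of SLCO2B1 and in that of SLCO3A1 the groups did not overlap, and the directions were opposite. Without degenerative pool A the log2 differences were -0.61 for SLCO2B1 and 1.501 for SLCO3A1. PTGR1 and PTGR2, reductases that act after HPGD, had log2 differences of -0.50 and -0.24, neither with a limma p under 0.05 over all pools. Without degenerative pool A they were -0.76 and -0.41, and PTGR1 then had an unadjusted limma p of 0.00448. Another probe set of PTGR1 was lower without overlap between the groups, at a log2 difference of -0.93 (limma adjusted p = 0.617).

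The supply of arachidonic acid was followed through 2 lists. Of 7 genes of its synthesis and storage 4 had a probe set, and FADS2, the desaturase that starts the synthesis of arachidonic acid from linoleic acid, had the largest difference of them. It read 7.10, 8.87 and 8.37 in degenerative pools and 9.99, 9.99 and 9.72 in blastocyst pools, a log2 difference of -1.79 (limma adjusted p = 0.517) and -1.28 without degenerative pool A. ELOVL5, LPCAT3 and MBOAT7 differed by -0.17, 0.35 and 0.03, and by -0.18, -0.32 and 0.20 without degenerative pool A, so that LPCAT3 turned direction, and all 3 overlapped between the groups. Of 21 genes of release 8 had a probe set, with 2 lower and 4 higher of the 6 tested. ANXA1, known as an inhibitor of cytosolic phospholipase A2, was at 13.42, 13.45 and 13.75 in degenerative pools and at 14.48, 13.85 and 14.02 in blastocyst pools (log2 difference -0.57, adjusted p = 0.566, and -0.51 without degenerative pool A). PLA2G15, a lysosomal phospholipase, had a log2 difference of -0.50 (adjusted p = 0.624), and of -0.61 without that pool. DAGLB, a diacylglycerol lipase, was at 7.65, 6.47 and 6.60 in degenerative pools and at 5.92, 6.09 and 6.05 in blastocyst pools (log2 difference 0.88, adjusted p = 0.593, and 0.51 without degenerative pool A).

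**Figure D4:**
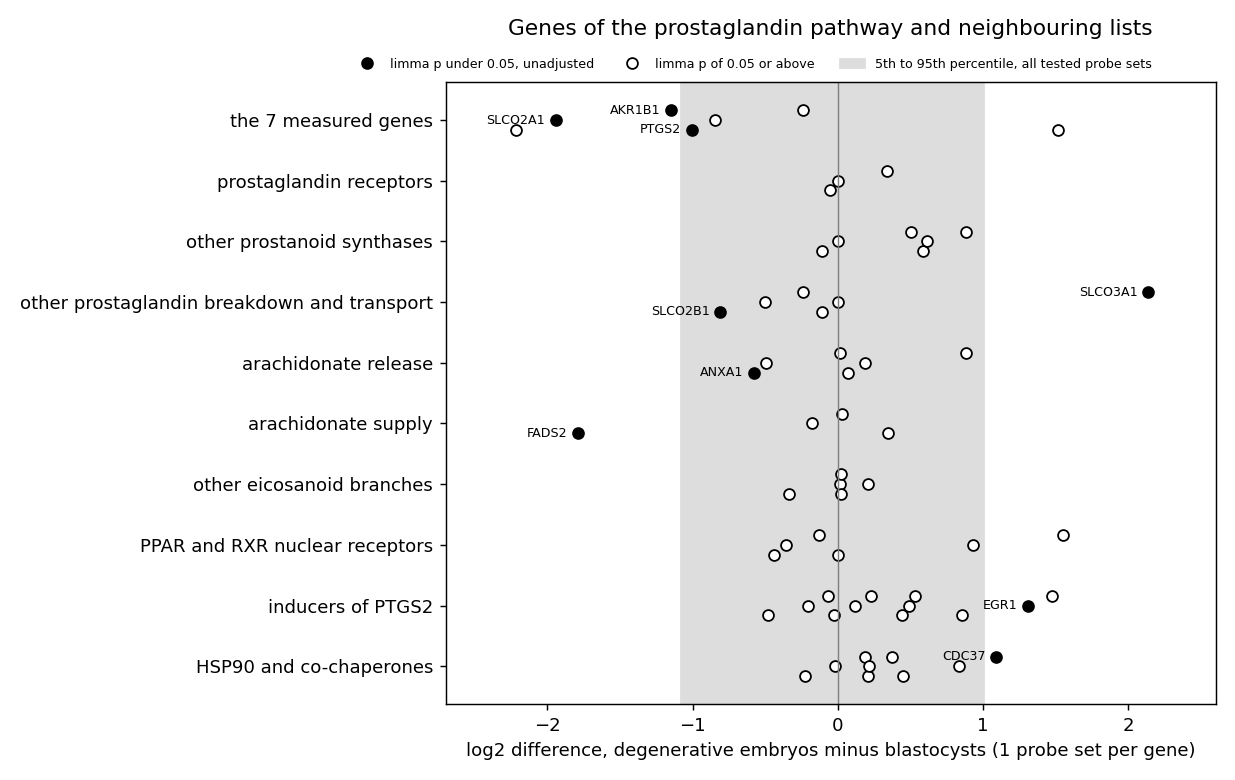
Log2 difference, degenerative embryos minus blastocysts (horizontal axis), of every tested gene in the pathway and neighbouring lists (rows, 1 probe set per gene), filled where the unadjusted limma p was under 0.05, with the range between the 5th and 95th percentile of all tested probe sets in grey (-1.08 to 1.01). SLCO2A1, AKR1B1, FADS2 and PTGES lie below that range, and SLCO3A1, HPGD, EGR1, CDC37, PPARA and TNFRSF1A lie above it.

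Lists next to the pathway gave few differences. In the other branches of arachidonic acid metabolism, 5 of 12 genes could be tested and the lipoxygenases were at or near the floor, with ALOX5 at most at 2.50 in degenerative pools and 2.44 in blastocyst pools. ALOX12B read at most 2.22 in degenerative pools and 2.15 in blastocyst pools. LTA4H, which makes leukotriene B4, had a log2 difference of -0.33 (adjusted p = 0.795), and of -0.75 without degenerative pool A. All 6 PPAR and RXR nuclear receptors were measured. PPARD, PPARG and RXRA were lower, PPARA and RXRB were higher, and RXRG was near the floor with a log2 difference of 0. PPARD, a receptor for which prostacyclin has been named as a ligand, was at 6.80, 8.49 and 8.46 in degenerative pools and at 7.77, 8.69 and 8.61 in blastocyst pools (log2 difference -0.44, which turned to 0.12 without degenerative pool A). RXRB had a log2 difference of 0.93 (adjusted p = 0.650) and RXRA of -0.36 (adjusted p = 0.688), and without that pool they were at 0.47 and -0.32. PPARA was at 6.77 in degenerative pool A and at the floor in the other 5 pools. Among 14 genes known to induce PTGS2 in other cells, 4 of the 12 tested were lower and 8 were higher. EGR1, an immediate early transcription factor, was at 10.45, 11.04 and 10.30 in degenerative pools and at 9.18, 8.93 and 9.75 in blastocyst pools, a log2 difference of 1.31 (limma adjusted p = 0.479). Without degenerative pool A it was 1.38. TNFRSF1A had a wider spread and a log2 difference of 1.47 (standard error 1.385), and of 2.49 without degenerative pool A. IL1A, IL6 and RELA had log2 differences of 0.85, 0.53 and 0.49, and of 0.49, 0.27 and 0.46 without that pool, and IL1B and TNF were at the floor in all pools. No gene of the lists named here passed limma after adjustment.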

How the data were processed

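RNA of each pool was amplified, labeled with biotin and hybridized to a GeneChip Bovine Genome Array by the authors. Per probe set the authors deposited log2 values from GCRMA, for which the submitters' processing notes name version 2.14.1 and which corrects background from probe sequence, normalizes arrays by quantiles and summarises probes by median polish. Detection calls were not used. Arrays have no read depth, and the number of pools limits precision.

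From these values, 20 control probe sets and 5079 that were constant over the arrays were dropped. The other 18937 entered limma (version 3.58.1, run in R 4.3.3) with lmFit, eBayes and Benjamini-Hochberg adjustment. SAM was written again from its description. Both were run on simulated data, where the limma estimates were checked against the known changes and the SAM calls were only counted. Gene symbols came from the platform annotation, updated through ARS-UCD2.0 by gene ID. The genes and lists were chosen with earlier results of these data known. Named genes were all probe sets of the 9 genes, all receptors and synthases, and from each list the 3 with the smallest limma p. Others were chosen after their values were seen, and the planned naming by highest and lowest level was not followed, since levels of different probe sets are not comparable. Deviations from group means correlated between pools of the same letter, across probe sets, with r = 0.373 for A, 0.180 for B and 0.275 for C, so the letters were also used as a block.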

Additional observations from a re-analysis of the deposited data

How the results depend on the processing

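Of 147 differences of the 10 tested probe sets under 15 alternatives, 140 kept their direction and stayed short of the threshold. The third probe set of PTGS2 lay between -0.22 and 1.47 when any single pool was left out, and the difference of PTGS1 was 0.022 without both A pools. The second HPGD probe set had a difference of 0 without degenerative pool A. SAM at a false discovery rate of 25%, an alternative chosen after seeing the data, called 3 of the 10, and no other setting called any. Over the whole array limma called 4 probe sets, and SAM called 67 at 15% and 883 at 25%. The limma count was 0 with the replicate block, 1 with arrays centred on their medians, 1 with the filter on dim probe sets, 0 with an intensity trend, 57 with array weights, 30 at an adjusted p of 0.25, 0 without both A pools, and 1 to 42 without any single pool, with 42 without degenerative pool A. The causes of these shifts were not tested. The replicate block changed no call of the 10 probe sets. The RefSeq probe set of PTGS2 ranged from -1.13 to -0.74, AKR1B1 from -1.30 to -0.76 and SLCO2A1 from -2.23 to -1.13 over the alternatives. Signals near the floor limit what can be seen for HPGD, PTGS1 and the receptors.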

Other observations

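PTGES3 belongs to the HSP90 chaperone machinery, whose other genes were measured as a list of 9. Of these 2 were lower and 7 higher in degenerative embryos, with a median log2 difference of 0.22 (0.12 without degenerative pool A). CDC37, which brings kinases to HSP90, was at 10.28, 9.73 and 8.82 in degenerative pools A, B and C and at 8.50, 8.52 and 8.54 in blastocyst pools A, B and C, a log2 difference of 1.09 (limma adjusted p = 0.574, and 0.76 without degenerative pool A). AHSA1, an activator of HSP90, was at 12.34, 11.80 and 11.80 in degenerative pools and at 11.48, 11.49 and 11.61 in blastocyst pools, a log2 difference of 0.45 (adjusted p = 0.586, and 0.27 without that pool). The groups did not overlap for either gene. PPID, a cyclophilin, differed by 0.22 (adjusted p = 0.702), and HSP90AA1 itself differed by 0.19 (adjusted p = 0.737), and without degenerative pool A they differed by 0.09 and 0.07.

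Other genes of the expansion of cumulus cells, in which PTGS2 acts, overlapped between the groups. PTX3, a matrix protein, was at 2.12, 8.36 and 7.22 in degenerative pools A, B and C and at 2.25, 2.12 and 4.27 in blastocyst pools A, B and C. HAS2, which makes hyaluronan, was at 11.80, 10.55 and 9.92 in degenerative pools and at 10.82, 9.998 and 10.10 in blastocyst pools, in its brightest probe set. Another of its probe sets was between 8.11 and 8.77 in every pool. The HAS2 probe set annotated to the RefSeq transcript was at 7.53 in degenerative pool A and at 2.12 in all other pools. TNFAIP6, a hyaluronan-binding protein, was at 2.59, 4.63 and 4.20 in degenerative pools and at 5.04, 3.78 and 5.05 in blastocyst pools. None of the 3 had a limma p under 0.05 over all pools. PTX3 did without degenerative pool A, at a log2 difference of 4.91. The log2 differences of HAS2 and TNFAIP6 were 0.45 and -0.82 with all pools, and -0.07 and -0.21 without that pool, so that HAS2 turned direction.

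Over the 6 pools, the pattern of PTGS2 in its RefSeq probe set was most like those of PPP2CB (a phosphatase subunit), SCD (stearoyl-CoA desaturase) and WWP1 (a ubiquitin ligase), at a Pearson's r of 0.996, 0.996 and 0.992. The 6 pools share the 2 groups, and 96 of the 7424 candidate probe sets had an r above 0.95, so this is a description. SCD read 10.23, 9.88 and 10.53 in degenerative pools and 12.30, 11.35 and 11.39 in blastocyst pools. For the second PTGS2 probe set the most like were TCFL5, RAB11A and MUC1, at r of 0.999, 0.998 and 0.998. Without degenerative pool A these were 0.960, 0.911 and 0.914. MUC1, a mucin of the cell surface, read 2.40 in degenerative pool A and 8.63 and 9.01 in degenerative pools B and C, against 9.85, 9.09 and 8.84 in blastocyst pools.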
